A study of Homo sapiens with 12 samples.

Results

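The antioxidant enzymes described here are a set of 9 genes for the removal of superoxide and peroxide: SOD1, SOD2, CAT, GPX1, GPX4, PRDX1, TXN, TXNRD1 and GCLM. Each was taken as the locus of the deposited expression table whose gene name held the symbol, and where several loci held it, as the locus with the highest mean over the 12 libraries. A locus was found for 8 of the 9 symbols among 38272 loci, and 7 of these were above 0 in every library. GPX1 was not found under that symbol and is not analysed here. All libraries came from K562, an established line of chronic myeloid leukaemia cells with erythroid features. Cells were transfected with an siRNA together with a GapmeR, a short antisense DNA strand with modified ends on which RNase H cuts the matching RNA, and were left without or given tumour necrosis factor (TNF, 20 ng/mL for 6 hours). The 4 groups were TNFSG (Si623/Gap01, directed at one long non-coding RNA, then TNF), TNF (the control pair SiCt+GapCt, called mock transfection, then TNF), SG (Si623/Gap01 without TNF) and control (SiCt+GapCt without TNF), with 3 labelled biological replicates each. Every group was therefore transfected, and the siRNA and the GapmeR were given together, so their effects cannot be told apart.

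Superoxide, which leaks from the mitochondrial electron chain and is made by NADPH oxidases, is converted to hydrogen peroxide by superoxide dismutases: SOD1, which uses copper and zinc, in the cytosol, and SOD2, which uses manganese, in the mitochondrial matrix. Peroxide is then removed by catalase (CAT), by glutathione peroxidases and by peroxiredoxins, the last recharged by thioredoxin (TXN) and thioredoxin reductase (TXNRD1). SOD2 is widely known as a gene that TNF induces through the transcription factor NF-kB, in part from an enhancer inside the gene, whereas GCLM, TXNRD1 and PRDX1 are known targets of NRF2, a factor activated by oxidative stress.

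The DNA at the start of these genes is shown for the members the results turn on, since NF-kB and NRF2 each bind a known short sequence. RefSeq windows (GRCh38.p14, from 250 bases before to 50 bases after an annotated start) were matched for 7 of the 9 symbols, in 13 windows, and were searched on both strands for the kB letters GGGNNNTTCC, the antioxidant response element (ARE) letters TGACNNNGC and the GC box GGGCGG. No member window held the kB letters, against 6.518% of all 35116 windows. The ARE letters were in 3 member windows of 2 genes, GCLM and TXNRD1, against 13.35% of all windows, and the GC box was in all 13, against 44.95%. The 2 windows printed whole are those of SOD2 at chr6:159693192-159693491, minus strand, and GPX4 at chr19:1103744-1104043, plus strand, with GC boxes on either strand in capitals (in SOD2 some overlap each other).
SOD2: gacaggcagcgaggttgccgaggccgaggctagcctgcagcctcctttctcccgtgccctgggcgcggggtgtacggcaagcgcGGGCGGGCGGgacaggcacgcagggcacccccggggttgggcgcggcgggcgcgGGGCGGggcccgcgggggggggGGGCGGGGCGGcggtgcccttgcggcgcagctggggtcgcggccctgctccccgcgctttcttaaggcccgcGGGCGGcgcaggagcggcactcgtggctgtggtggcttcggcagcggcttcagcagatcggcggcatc
GPX4: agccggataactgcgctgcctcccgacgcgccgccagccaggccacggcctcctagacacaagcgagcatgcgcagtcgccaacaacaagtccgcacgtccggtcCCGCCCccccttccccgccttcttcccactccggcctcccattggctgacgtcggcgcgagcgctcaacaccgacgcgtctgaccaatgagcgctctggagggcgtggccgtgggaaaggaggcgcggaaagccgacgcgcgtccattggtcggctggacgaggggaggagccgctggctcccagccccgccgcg
ARE matches are shown in capitals for GCLM at chr1:93909436-93909484, minus strand, for the first TXNRD1 window at chr12:104215660-104215708, which shows 1 of the 2 matches in that window, and for the second at chr12:104286910-104286958, both plus strand.
GCLM: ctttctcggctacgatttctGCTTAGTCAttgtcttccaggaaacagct
TXNRD1 first window: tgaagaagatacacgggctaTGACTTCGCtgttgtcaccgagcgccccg
TXNRD1 second window: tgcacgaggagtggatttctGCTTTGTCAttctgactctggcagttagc
For contrast, kB matches are in capitals for 2 NF-kB targets used as a check of the TNF treatment, NFKBIA at chr14:35404801-35404850, minus strand, and NFKB1 at chr4:102501290-102501339, plus strand. Of the 9 check genes, 7 had windows, and 5 of these held the kB letters.
NFKBIA: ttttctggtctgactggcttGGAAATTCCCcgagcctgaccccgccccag
NFKB1: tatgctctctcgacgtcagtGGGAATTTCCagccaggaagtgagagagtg
A match describes letters only. The windows do not cover enhancers within a gene, and a window without a match does not show a lack of binding there or elsewhere. ICAM1 and CXCL8, the check genes with a window but no kB match, rose under TNF.

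Expression is given as FPKM, a count of sequenced fragments scaled to transcript length and library depth, so levels can be compared between genes. The sum of FPKM per library ran between 925955 and 1083476. Read totals are not in the table, and relative depth, estimated from the steps of low values, ran between 0.787 (control replicate 3) and 1.21 (TNFSG replicate 1) of control replicate 1. Of 10 erythroid and early haematopoietic markers all had a locus, with HBG2 and HBE1 on the same one. Of these 9 loci, 8 averaged at least 5 FPKM, among them GATA1 and KLF1. So did 4 of 6 epithelial markers. The locus named MIR146A, which stands in for the targeted RNA because the table does not use its catalogue name, had 7.77, 4.51 and 4.03 FPKM in TNFSG libraries, 28.1, 25.6 and 21.2 in TNF libraries, 0, 0.057 and 0.063 in SG libraries and 0.36, 0.569 and 0.159 in control libraries. That this locus is the target is a reading of the series title, not stated in the labels. Differences were tested with limma on log2(FPKM + 1), over 32866 loci and all 12 libraries, with Benjamini-Hochberg adjustment and a threshold of 0.05. Fold changes are on that scale, and p-values measure the spread between the labelled replicates. Where groups are said not to overlap, the share of all loci without overlap was not counted. In bulk RNA, fewer cells of a type and less RNA per cell cannot be told apart.

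**Figure D1:**
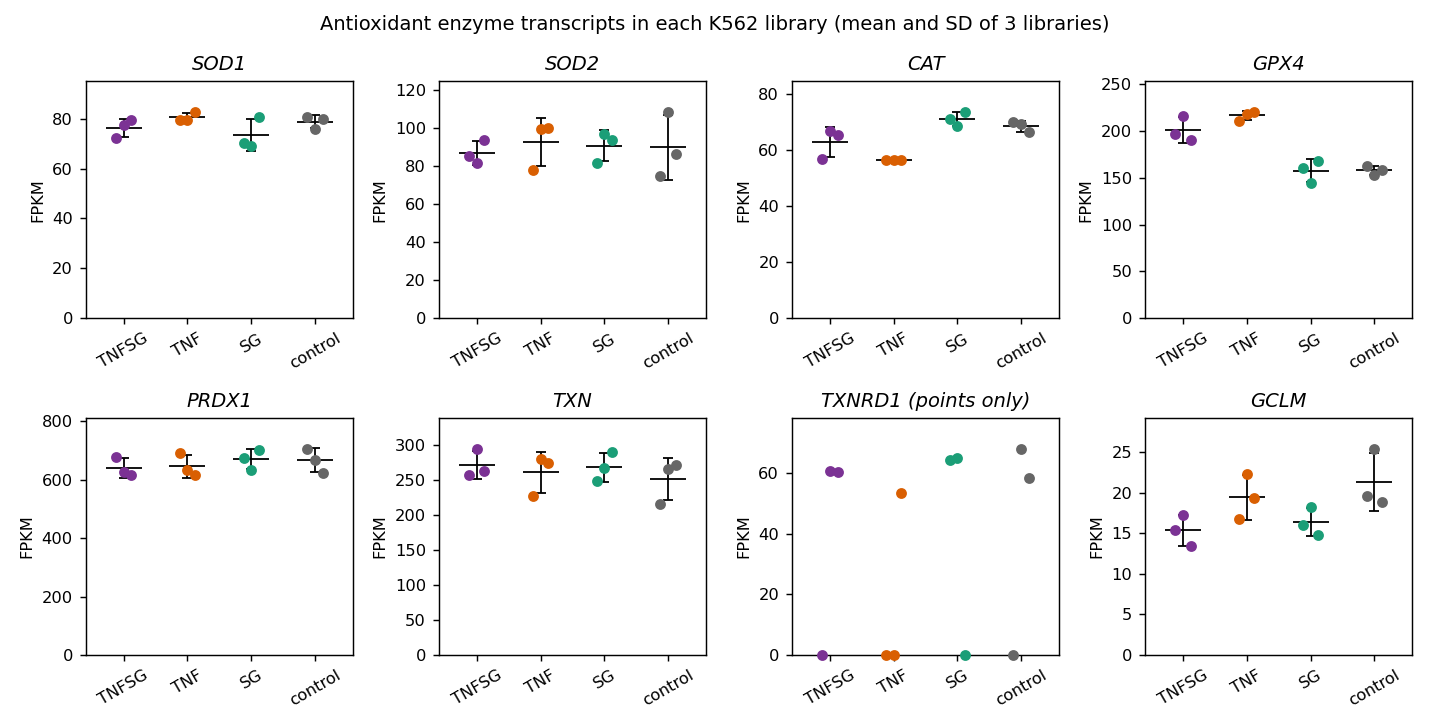
FPKM of 8 antioxidant enzymes (vertical axes from 0, each panel with its own range) in each library of TNFSG, TNF, SG and control cells; points are libraries, and black marks are the mean and SD of 3 libraries, left out for TXNRD1, which was listed at 0 in 5 libraries. GPX4 lies between 190 and 220.3 FPKM in the TNF-treated libraries, above the 144 to 168 FPKM of the untreated ones, while SOD2 overlaps across all groups.

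By level, the order of the group means was PRDX1, TXN, GPX4, SOD2, SOD1 and CAT in each of the 4 groups, with GCLM below them. PRDX1, a cytosolic peroxiredoxin, averaged 656 FPKM over the 12 libraries and TXN 263 FPKM. GPX4, the selenoenzyme that reduces lipid peroxides, averaged 183 FPKM. SOD2 averaged 90.1 FPKM, SOD1 77.2 FPKM and CAT 64.8 FPKM. GCLM, the modifier subunit of the enzyme that starts glutathione synthesis, averaged 18.1 FPKM. Most neighbours in this order were separated by all libraries of a group. The exceptions were SOD2 and SOD1, whose libraries overlapped in TNF and control cells, and SOD1 and CAT, whose libraries overlapped in SG cells. The coefficient of variation over the 12 libraries was lowest for PRDX1 (5.22%) and highest, leaving TXNRD1 aside, for GCLM (18.4%).

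Of the 8 loci, 1 passed the test in TNF against control, where 1.45% of all loci were called, and it was GPX4. In TNFSG against SG 0 of the 8 passed, against 1.64% of all loci. In SG against control and in TNFSG against TNF 0 of the 8 passed, against 0.17% and 0.128% of all loci. An unadjusted p under 0.05 was reached by GPX4 and CAT in TNF against control and in TNFSG against SG, where 11.2% and 11.4% of all loci reached it. It was reached by GCLM alone in SG against control, which is 12.5% of the 8 beside 9.86% of all loci, and by 0 of the 8 in TNFSG against TNF, beside 9.11%. The difference between the TNF effects with and without the targeted transfection (interaction) was called for 0 of the 8, against 0.00913% of all loci, and 0 of the 8 had an unadjusted p under 0.05 there, against 3.75% of all loci. The median log2 change over the 8 loci was -0.01 in TNF against control and -0.06 in TNFSG against SG, beside -0.02 and -0.03 over all loci tested. It was 0.02 in SG against control and -0.04 in TNFSG against TNF, beside 0.08 in each over all loci.

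SOD2, the manganese enzyme of mitochondria, had 78.0, 99.4 and 100.3 FPKM in TNF libraries, against 74.8, 109 and 86.6 FPKM in control libraries. After the targeted transfection it had 85.4, 81.6 and 93.8 FPKM in TNFSG libraries, against 81.6, 96.9 and 93.7 FPKM in SG libraries. The groups overlapped in every pair, and both the lowest and the highest of the 12 values were control libraries. SOD2 in TNF cells was 1.03 times its level in control cells, with a 95% interval of 0.823 to 1.30, and TNFSG cells had 0.960 times the level of SG cells, with an interval of 0.765 to 1.20 (limma adjusted p = 0.954 and 0.939). SG cells had 1.02 times the level of control cells (interval 0.811 to 1.28) and TNFSG cells 0.945 times that of TNF cells (0.753 to 1.19). The interaction was -0.11 on the log2 scale (interval -0.57 to 0.36). A rise of SOD2 under TNF of more than 1.30-fold therefore lies outside the interval in mock-transfected cells.

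The cells responded to TNF in the same libraries. All 9 check genes, which are known NF-kB targets, rose in both TNF comparisons. Their median log2 change was 3.51 in TNF against control and 3.43 in TNFSG against SG. The list was chosen with earlier results of these data known, so this count describes the response and does not test it. NFKBIA, the inhibitor that retains NF-kB in the cytoplasm, had 143, 139 and 133 FPKM in TNF libraries, against 11.8, 11.4 and 9.44 FPKM in control libraries, 11.8-fold (interval 10.1 to 13.7, limma adjusted p = 1.3e-07). ICAM1, an adhesion molecule, had 354, 328 and 336 FPKM in TNF libraries, against 15.6, 14.5 and 15.2 FPKM in control libraries. The distance between these genes and SOD2 was seen in every TNF-treated library: NFKBIA and ICAM1 did not overlap with the untreated libraries, and SOD2 did.

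**Figure D2:**
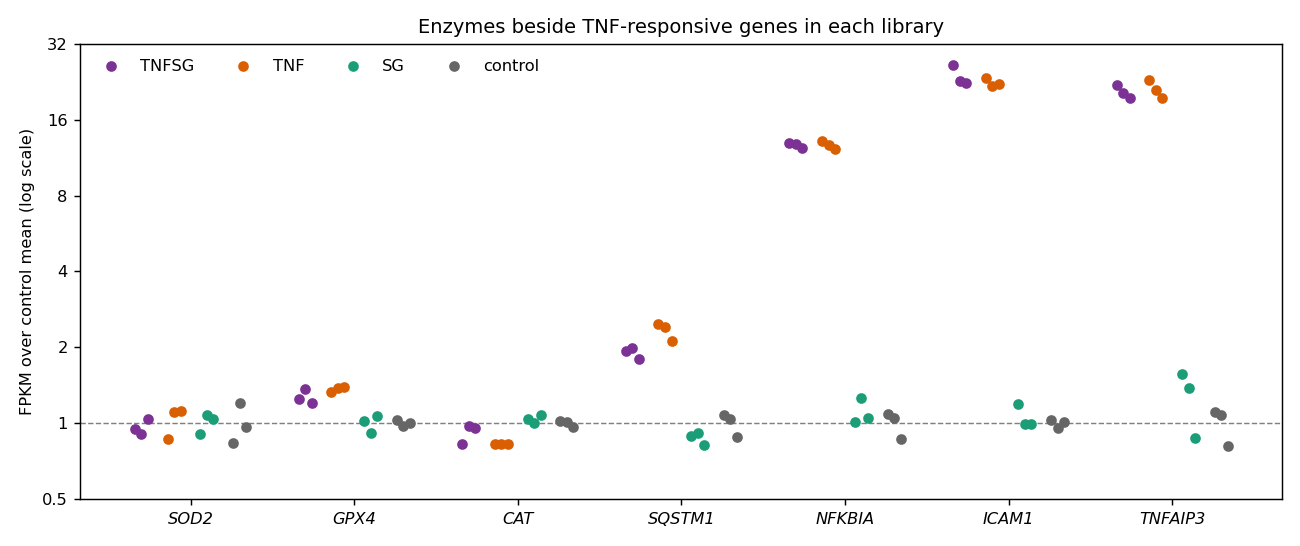
FPKM of each library divided by the mean of the control libraries (log axis) for 3 enzymes, SQSTM1 and 3 NF-kB targets in TNFSG, TNF, SG and control cells; each point is 1 library. SOD2 stays near 1 in all groups, GPX4 lies above 1 and CAT below 1 in TNF and TNFSG cells, and SQSTM1, NFKBIA, ICAM1 and TNFAIP3 lie above 1 by larger factors.

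The SOD2 values rest on 1 of 6 loci that carry the name. The other 5 reached at most 10.8 FPKM, and the chosen locus held 93.6% of the mean summed over all 6. In GENCODE 29 (GRCh38), SOD2 is on the minus strand at chr6:159669057-159745186, with a second entry of the same name at chr6:159679119-159762529. The span of both entries overlaps WTAP on the opposite strand by 30735 bases. Whether counting used strand is not given in the sources used here, so reads of this overlap cannot be told apart from those of WTAP, although the table lists WTAP as a locus of its own. The 5 loci closest to SOD2 in their profile over the 12 libraries, by the root mean square difference in centred log2(FPKM + 1), were MLLT10 (0.081), MYDGF (0.083), MORF4L1 (0.083), HNRNPD (0.086) and BLM (0.088). The median of that difference over 11838 candidate loci was 0.274. The close loci were picked for likeness to SOD2, so flat group means follow from that choice. MYDGF, for example, had means of 84.7, 86.4, 85.6 and 88.0 FPKM in TNFSG, TNF, SG and control cells.

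SOD1, the cytosolic dismutase, differed little between groups. It had 72.3, 77.6 and 79.3 FPKM in TNFSG libraries, 79.3, 79.6 and 82.7 in TNF libraries, 70.2, 69.0 and 80.6 in SG libraries and 80.6, 75.8 and 79.8 in control libraries. TNF cells had 1.02 times the SOD1 level of control cells, with an interval of 0.916 to 1.14. The other 4 genes of the list on dismutases and copper delivery, among them CCS, the copper chaperone of SOD1, and extracellular SOD3, did not pass the test in any comparison.

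GPX4 rose under TNF in mock-transfected cells. It had 211, 219 and 220.3 FPKM in TNF libraries, against 162, 153 and 158 FPKM in control libraries, and the groups did not overlap. The means were 217 ± 5.10 FPKM in TNF cells and 158 ± 4.60 FPKM in control cells (SD, n = 3 each), a 1.37-fold difference (interval 1.22 to 1.54, log2 0.45 ± 0.07 SE, limma adjusted p = 0.0157). After the targeted transfection it had 197, 216 and 190 FPKM in TNFSG libraries, against 161, 144 and 168 FPKM in SG libraries. These groups did not overlap either, at 1.27-fold (interval 1.14 to 1.43), but the limma adjusted p of 0.0552 missed the threshold. The interaction was -0.10 on the log2 scale (interval -0.34 to 0.13), so a difference between the TNF effects was not detectable here. SG and control cells had GPX4 at 0.997-fold (interval 0.888 to 1.12).

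When 1 library at a time was left out, GPX4 in TNF against control no longer passed in 4 of 6 fits: the limma adjusted p was 0.0768 without control replicate 2, 0.0668 without control replicate 3, 0.0621 without TNF replicate 2 and 0.0709 without TNF replicate 3, with the log2 change between 0.43 and 0.47 in all 6. It also missed the threshold without the variance trend (0.0739) and when fitted on TNF and control libraries alone (0.0775). Fibroblast markers were high in some of the TNF-treated libraries, but 0 of the 3 tested were called in either TNF comparison. Their summed level, over the 3 of 6 markers with a locus, ran between 65.2 and 444 FPKM in TNFSG, between 55.1 and 1178 in TNF, between 21.3 and 45.3 in SG and between 23.9 and 56.3 in control libraries. COL1A2 made most of the high sums, with 1098 FPKM in TNF replicate 1, 127 FPKM in TNF replicate 2 and 406 FPKM in TNFSG replicate 2, while COL3A1, LUM and PDGFRA had no locus. The 9 loci of erythroid and early haematopoietic markers had a median log2 change of -0.35 in TNF against control, with 0 called. TNF replicate 3, with GPX4 at 220.3 FPKM, had COL1A2 at 2.60 FPKM and the lowest fibroblast sum of its group, 55.1 FPKM. That sum lies within the range of the control libraries, which reached 56.3 FPKM, and above all SG libraries. The part of either marker list in the GPX4 result was not tested. GPX4 was the most abundant glutathione peroxidase measured, since GPX3 reached at most 3.82 FPKM and GPX8 reached 15.5 FPKM, and neither passed the test.

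CAT, the haem enzyme that breaks down peroxide in peroxisomes, had 56.4, 56.4 and 56.5 FPKM in TNF libraries, against 70.1, 69.3 and 66.3 FPKM in control libraries. In the pair with the targeted transfection it had 56.8, 66.7 and 65.4 FPKM in TNFSG libraries, against 71.1, 68.5 and 73.7 FPKM in SG libraries. Every TNF-treated library thus lay below every untreated library of its pair, and how many of all loci separate in this way was not counted. CAT was at 0.826-fold in TNF against control (interval 0.743 to 0.918, unadjusted p = 0.0025, limma adjusted p = 0.105) and at 0.885-fold in TNFSG against SG (interval 0.797 to 0.984, limma adjusted p = 0.345), so neither passed the test. The interaction was 0.10 on the log2 scale (interval -0.12 to 0.32). CAT also did not overlap between TNFSG and TNF libraries, at 1.11-fold (interval 0.9997 to 1.24, limma adjusted p = 0.547).

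**Figure D3:**
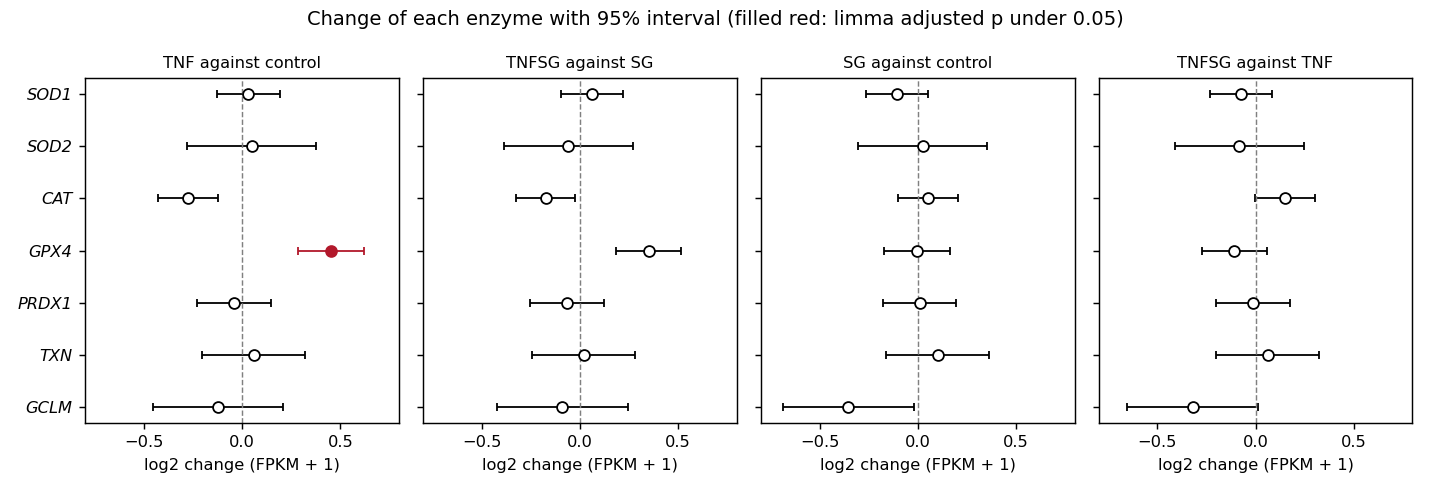
Log2 change of each enzyme except TXNRD1 (horizontal axes, log2 of FPKM + 1, tested over its comparison group) with its 95% interval in 4 comparisons. The filled red point is the only call, GPX4 in TNF against control. CAT lies below 0 in both TNF comparisons and GCLM below 0 in both comparisons of the targeted transfection, without passing the test, and SOD2 spans 0 in all 4.

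PRDX1 and TXN, the most abundant members, did not pass the test anywhere. PRDX1 had 679, 627 and 617 FPKM in TNFSG libraries, 691, 635 and 615 in TNF libraries, 677, 635 and 701 in SG libraries and 707, 669 and 625 in control libraries. TXN had 257, 295 and 264 FPKM in TNFSG libraries, 228, 281 and 275 in TNF libraries, 248, 268 and 289.7 in SG libraries and 216, 266 and 271 in control libraries. Both overlapped in all 4 pairs of groups compared. Their TNF changes were bounded by 0.852 to 1.11-fold for PRDX1 and 0.867 to 1.25-fold for TXN in mock-transfected cells. TXN has 7 annotated pseudogenes and SOD1 has 3, so reads of 50 bases may be shared with these copies. The other peroxiredoxins with a locus, PRDX2, PRDX3, PRDX4 and PRDX6, did not pass the test in any comparison.

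TXNRD1, the selenoenzyme that reduces thioredoxin, was listed at 0 in 5 of the 12 libraries and between 53.3 and 68.0 FPKM in the rest. It was at 0, 60.5 and 60.2 FPKM in TNFSG libraries, at 0, 0 and 53.3 in TNF libraries, at 64.3, 64.9 and 0 in SG libraries and at 0, 68.0 and 58.2 in control libraries. The zeros fell in all 4 groups. Such zeros were not particular to TXNRD1: of 4763 loci that exceeded 50 FPKM somewhere, 1223 were listed at 0 in at least 1 library, among them the proteasome gene PSMA1 in 1 library and the mitochondrial protease gene YME1L1 in 4. An exact 0 may thus be a failed estimate. Changes with the zeros in place are printed only among the alternatives below and are not read as results. With its zeros TXNRD1 is also 1 of the 8 loci in the counts and medians above, at a log2 SE of 2.56 in TNF against control. With the zeros taken as missing, the log2 change was -0.10 in TNFSG against SG and 0.04 in SG against control, each with 2 libraries a group, and neither passed the test. In TNF against control it was -0.23, from 1 TNF library whose spread is assumed to be that of the other groups, so this value says little about TXNRD1.

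GCLM, which carries an ARE match in its start window, did not pass the test. It had 16.0, 18.2 and 14.8 FPKM in SG libraries, against 19.6, 25.4 and 18.9 FPKM in control libraries, without overlap. In TNF-treated cells it had 15.4, 17.2 and 13.4 FPKM in TNFSG libraries, against 16.7, 22.2 and 19.3 FPKM in TNF libraries, and TNFSG replicate 2 lay above TNF replicate 1. The level was 0.783-fold in SG against control (interval 0.621 to 0.986, unadjusted p = 0.039, limma adjusted p = 0.477) and 0.801-fold in TNFSG against TNF (interval 0.636 to 1.01, limma adjusted p = 0.568). Under TNF alone it was 0.918-fold that of control cells (interval 0.729 to 1.16).

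Around the members, 11 lists of the antioxidant pathway, together with CAT, held 122 symbols, for which 97 loci were found and 96 tested. In TNF against control 3 of the 96 were higher and 1 was lower, GPX4 included, with a median log2 change of 0.02. In TNFSG against SG 2 were higher and 0 lower, with a median of -0.01. In SG against control, TNFSG against TNF and the interaction 0 passed, while 16, 15 and 4 of the 96 had an unadjusted p under 0.05. As shares of the 96 these are 16.7%, 15.6% and 4.17%, beside 9.86%, 9.11% and 3.75% of all loci. In TNF against control the share was 16.7%, beside 11.2% of all loci, and in TNFSG against SG it was 15.6%, beside 11.4%.

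SQSTM1, which encodes the autophagy receptor p62 that binds the NRF2 inhibitor KEAP1, rose in both TNF comparisons. It had 277, 271 and 238 FPKM in TNF libraries, against 121, 117 and 98.8 FPKM in control libraries, 2.32-fold (interval 2.01 to 2.69, limma adjusted p = 0.000147). It had 216, 223 and 201 FPKM in TNFSG libraries, against 99.7, 102 and 91.4 FPKM in SG libraries, 2.17-fold (limma adjusted p = 0.000258). No TNF-treated library overlapped with an untreated one, and the calls held under all 17 alternatives of each comparison.

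ME1, the malic enzyme that makes NADPH in the cytosol, had 22.0, 22.1 and 20.2 FPKM in TNFSG libraries, against 14.9, 14.3 and 12.7 FPKM in SG libraries, and rose 1.50-fold (limma adjusted p = 0.00548), a call lost when fitted on these 6 libraries alone (0.0671). In mock-transfected cells it had 20.8, 22.4 and 19.5 FPKM in TNF libraries, against 15.0, 15.5 and 15.6 FPKM in control libraries, and rose 1.34-fold (limma adjusted p = 0.0366), which was past the threshold in 0 of 6 leave-one-out fits and also missed it under quantile normalization, without the trend and with only the groups compared, with an adjusted p of up to 0.196. SEPHS2, which makes the selenium donor for selenoproteins such as GPX4 and TXNRD1, fell to 42.9, 43.8 and 41.3 FPKM in TNF libraries, against 54.0, 57.5 and 59.2 FPKM in control libraries, 0.755-fold (limma adjusted p = 0.028). Of 6 leave-one-out fits, only the one without control replicate 1 kept SEPHS2 past the threshold, and it missed the threshold without the trend and with only the groups compared, with an adjusted p of up to 0.128. In TNFSG against SG SEPHS2 was at 0.799-fold and did not pass (limma adjusted p = 0.0741).

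**Figure D4:**
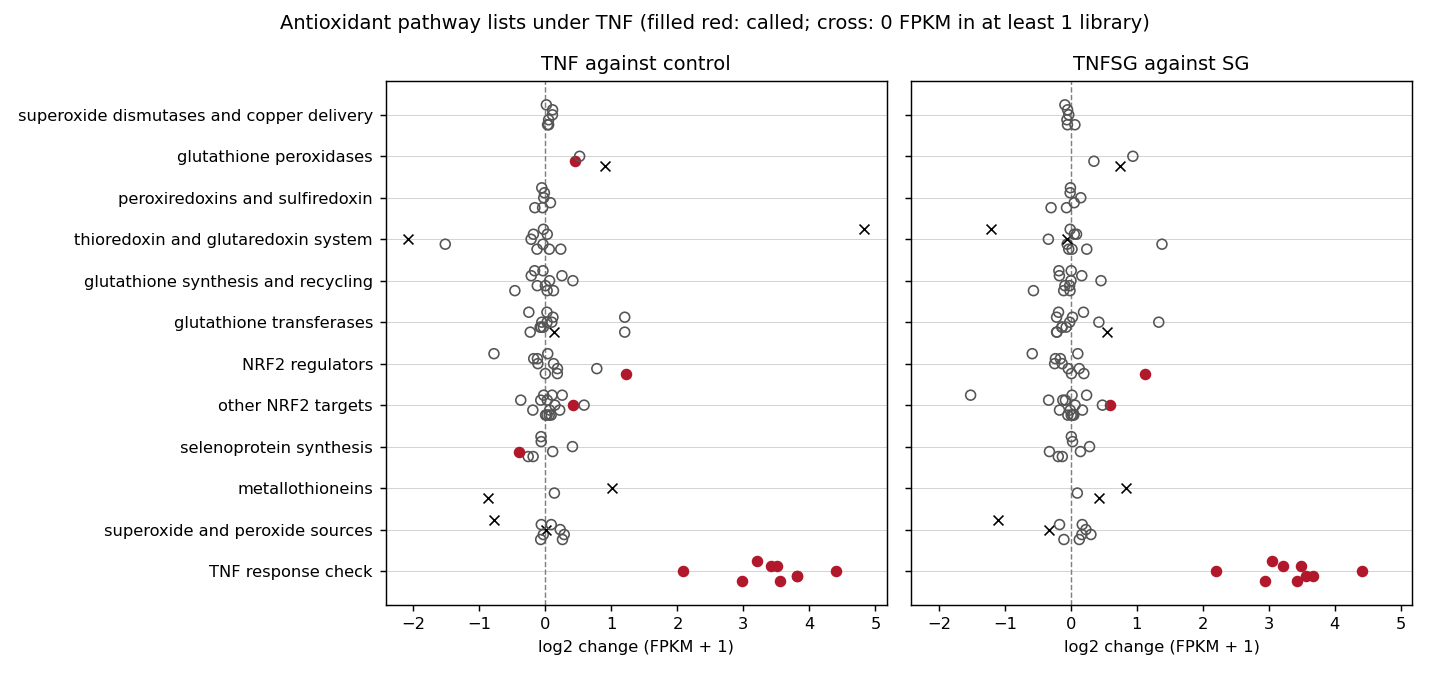
Log2 change (FPKM + 1) of each tested gene in 11 antioxidant pathway lists and the list of NF-kB targets, in TNF against control and TNFSG against SG; each mark is 1 gene, filled red where it passed the test, a cross where the locus was listed at 0 in at least 1 library, and GSTM2 and GSTM4, which share a locus, are each drawn. The 9 NF-kB targets all lie above 2, and most pathway genes lie near 0.

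In SG against control each NRF2 list held both higher and lower genes at an unadjusted p under 0.05. In TNFSG against TNF the genes at that level were all lower. Among 11 NRF2 regulators, 2 were higher and 1 lower at an unadjusted p under 0.05 in SG against control, and 0 were higher and 4 lower in TNFSG against TNF. Among 16 other NRF2 targets, 1 was higher and 2 lower in SG against control, and 0 were higher and 2 lower in TNFSG against TNF. For these targets the shares were 18.75% and 12.5%. Over all loci, 2241 were higher and 998 lower in SG against control, and 2084 higher and 911 lower in TNFSG against TNF. No gene of either list passed the adjusted test in these comparisons, and the genes that follow were named after their values were seen. The loci of NFE2L2, MAFG, OSGIN1 and SRXN1 also carry other gene names, such as MLYCD beside OSGIN1 and SCRT2 beside SRXN1. Their values cannot be assigned to 1 gene. NFE2L2, which encodes NRF2, had 26.0, 26.6 and 22.8 FPKM in SG libraries, against 32.8, 31.7 and 33.5 FPKM in control libraries, a log2 change of -0.37 (limma adjusted p = 0.202). It had 31.8, 29.3 and 25.9 FPKM in TNFSG libraries, against 38.3, 35.8 and 37.3 FPKM in TNF libraries, a log2 change of -0.35 (limma adjusted p = 0.247). KEAP1, the NRF2 inhibitor, had log2 changes of -0.10 in SG against control and -0.23 in TNFSG against TNF (limma adjusted p = 0.664 and 0.285). MAFG and SQSTM1, of the same list, had log2 changes of -0.30 and -0.29 in TNFSG against TNF (limma adjusted p = 0.415 and 0.379). NQO1, a quinone reductase and NRF2 target, had 35.4, 28.4 and 27.5 FPKM in SG libraries, against 53.9, 43.3 and 36.0 FPKM in control libraries, a log2 change of -0.52 (limma adjusted p = 0.334), and in TNFSG against TNF its log2 change was -0.57 (limma adjusted p = 0.318). FTL, the ferritin light chain, had log2 changes of -0.26 in SG against control and -0.34 in TNFSG against TNF (limma adjusted p = 0.349 and 0.258). In these pairs the groups did not overlap, and the share of all loci without overlap was not counted. In the other direction, OSGIN1, a further NRF2 target, had 13.0, 26.8 and 25.1 FPKM in SG libraries, against 10.1, 5.31 and 6.44 FPKM in control libraries (limma adjusted p = 0.223). Its log2 change in TNFSG against TNF was -0.19 (limma adjusted p = 0.922). SRXN1, the sulfiredoxin that repairs over-oxidised peroxiredoxins, belongs to another list. It had 24.2, 28.1 and 26.0 FPKM in SG libraries, against 19.0, 20.6 and 20.2 FPKM in control libraries (limma adjusted p = 0.158). The log2 change of SRXN1 in TNFSG against TNF was 0.23 (limma adjusted p = 0.403). GCLC, the catalytic partner of GCLM, was at 16.3, 20.9 and 19.8 FPKM in SG libraries, against 13.6, 17.6 and 15.5 FPKM in control libraries, a log2 change of 0.27 beside -0.35 for GCLM, and neither passed the test.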

How the data were processed

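RNA-seq of 12 K562 libraries, in 4 groups of 3 labelled biological replicates, is held in 1 deposited table with 1 column of FPKM values for each library. Per the labels' protocols, reads were single and 50 bases long. The authors' tools were, per the submitters' processing notes, Bowtie2 2.2.9 with TopHat2 2.0.14, followed by Cufflinks, on build hg38. No further scaling of the deposited FPKM values is stated. Cufflinks' version, the annotation release and the strand setting were not given in the sources used here. All columns were used.

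A locus was tested where 3 or more of the 12 libraries reached 1 FPKM. A model with 1 mean per group was fitted to log2(FPKM + 1), with a pseudocount of 1, over all 12 libraries in limma 3.58.1 (R 4.3.3, eBayes with a trend, two-sided, Benjamini-Hochberg adjustment, threshold 0.05). The code was tested on simulated data. Total depth is unknown, so no count interval is given. Relative depth comes from the steps of low values. Sequence searches and figures used Python 3.11.15 with pandas 2.3.3 and matplotlib 3.10.9.

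The members and lists were chosen with earlier results of these data known. The text names all members, every pathway gene past the threshold, the check genes and the 5 loci most like SOD2. Other genes named (GPX3, GPX8, CCS, SOD3 and the other peroxiredoxins by family, the cell type markers, PSMA1, YME1L1, WTAP, and the NRF2-related genes given as such) fall outside it and were chosen after their values were seen. Alternatives were the replicate block, pseudocounts of 0.1 and 0.5, no filter and a filter of 5 FPKM, median-ratio scaling, quantile normalization, no trend, only the groups compared, sums over all loci of a symbol, leaving out each library, and, added after seeing the data, values of 0 as missing.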

Additional observations from a re-analysis of the deposited data

How the results depend on the processing

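SOD2 passed the test under 0 of the alternatives in any comparison, and the direction of its small changes was not stable. In SG against control its log2 change was -0.058 with median-ratio scaling and -0.025 with quantile normalization. The same scalings gave -0.031 and -0.020 for CAT and -0.075 and -0.0080 for PRDX1 in that comparison. Median-ratio scaling gave -0.028 for TXNRD1 with its zeros in SG against control, and -0.0068 for TXN in TNFSG against TNF. Quantile normalization gave -0.019 for TXN in TNFSG against SG. Of the 8 enzymes, 1 (GPX4) was called in TNFSG against SG with a filter of 5 FPKM and with median-ratio scaling, and 0 were called in TNF against control without the trend and with only the groups compared. The cause was not tested. Leaving out 1 library gave 0 to 1 called enzymes in TNF against control. It gave SOD2 a log2 change of -0.076 to 0.19 in TNF against control, -0.098 to 0.17 in SG against control and -0.25 to 0.016 in the interaction. The other enzymes that changed direction in such fits were TXN (-0.046 to 0.15 in TNF against control, -0.041 to 0.074 in TNFSG against SG, -0.0026 to 0.16 in SG against control, -0.033 to 0.12 in TNFSG against TNF, -0.13 to 0.064 in the interaction), GCLM (-0.22 to 0.0038 in TNF against control, -0.094 to 0.13 in the interaction), GPX4 (-0.052 to 0.060 in SG against control), PRDX1 (-0.037 to 0.052 in SG against control, -0.056 to 0.035 in TNFSG against TNF, -0.065 to 0.026 in the interaction), SOD1 (-0.011 to 0.0995 in the interaction) and TXNRD1 with its zeros (-1.97 to 2.04 in SG against control, -2.08 to 1.92 in TNFSG against SG). With the replicate number as a block, 1 enzyme was called in TNF against control (GPX4, limma adjusted p = 0.0271) and 0 in the other comparisons, while 831 loci were called against 478 without it in TNF against control, and 843 against 540 in TNFSG against SG. Over all loci, 1 of 18 correlations between same-numbered libraries was over 0.1 (-0.02 to 0.13), and 6 of the 12 libraries correlated best with their own number, so the numbers were not taken to pair the samples. The rise in calls and single loci such as TXN, lowest in replicate 1 of all 4 groups, are a hint of shared deviations. The library titles also give each replicate number its own letter (A, B or C) across the 4 groups, without saying what it stands for. A pairing by number thus remains possible, and the main fit and its intervals do not use it. Total depth is unknown, which limits statements on low loci.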
